A study of Mus musculus with 11 samples.

Results

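The MHC class I presentation genes described here were 10 genes chosen by name, among the 48795 genes measured, for their part in placing peptides or lipids on the cell surface: B2m, H2-K1, H2-D1, H2-T23, Tap1, Tap2, Tapbp, Nlrc5, Erap1 and Cd1d1. They were followed by RNA sequencing in B cells sorted from the spleens of female mice aged 8 to 12 weeks on the C57BL/6 background, 10 d after immunization with sheep red blood cells (SRBC). The libraries are labelled with 50000000000 SRBC per mouse, whereas the methods of the study give a smaller number. Light zone (LZ) germinal center B cells, sorted as B220+ CD138neg IgDneg CD38neg Fas+ CD86high CXCR4low, came from 4 mice with wild-type Myc (MycWT, mice 1 to 4) and from 4 mice with Myc V394D at the endogenous Myc locus (MycVD, mice 5 to 8), a form of MYC described as unable to bind its partner MIZ1. Memory B cells (MBCs), sorted as B220+ CD138neg IgDneg CD38+ CD273+, came from MycWT mice 1, 3 and 4, which also gave LZ B cells. The MycVD mice and the MycWT mice carry names of different breeding groups, so a difference of genotype and one of breeding group cannot be told apart. The substitution itself could not be checked from gene levels. Each of the 11 libraries is 1 sorted population of 1 mouse, and both comparisons, MBC against LZ and MycVD against MycWT, used the same 4 MycWT LZ libraries.

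MHC class I molecules are built from a heavy chain, such as the classical H2-K1 and H2-D1 products, and the invariant light chain β2-microglobulin encoded by B2m. Peptides made in the cytosol are pumped into the endoplasmic reticulum by the TAP1–TAP2 transporter, trimmed by the aminopeptidase ERAP1 and loaded with the help of tapasin, the product of Tapbp. NLRC5 is a transactivator of class I genes, the counterpart of CIITA for class II, and the complex lets CD8+ T cells and NK cells inspect a B cell. On GRCm38, 6 of the members lie in the MHC on chromosome 17, from Tapbp (33915899 to 33929292), H2-K1 (33996017 to 34000347), Tap1 (34187553 to 34197225) and Tap2 (34203527 to 34216321) to H2-D1 (35262730 to 35267499) and H2-T23 (36029773 to 36032855). B2m lies on chromosome 2 (122147686 to 122153083), Cd1d1 on chromosome 3 (86995834 to 86999441), Nlrc5 on chromosome 8 (94434356 to 94527272) and Erap1 on chromosome 13 (74639568 to 74693201).

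Levels are given as TPM, which relate the estimated reads of a gene to its length and to the whole library, so that levels of different genes can be compared. The depth of each library is unknown from TPM, and precision was taken from the spread between mice. Ribosomal RNA genes took 35.7 to 44.5% of the TPM of the MycWT LZ libraries, 44.1 to 61.3% of the MycVD LZ libraries and 36.1 to 37.5% of the MBC libraries, and the rest was spread over the other genes. Markers of the sorted populations differed in the labelled direction. A list of 7 germinal center genes summed to 559 to 781 TPM in MycWT LZ, 387 to 658 in MycVD LZ and 108 to 165 in MBCs, and a list of 8 memory genes to 203 to 234, 177 to 209.9 and 1068 to 1325 TPM. A list of 6 naive follicular genes, which includes Ighd, was also higher in MBCs, at 986 to 1102 TPM against 227 to 244 in MycWT LZ. So were 5 marginal zone genes, at 311 to 414 against 187 to 211 TPM, and 4 B-1 cell genes, at 22.6 to 72.5 against 1.42 to 3.13 TPM. These are sums, and not every gene in them moved. Of the marginal zone genes, Plac8 (44.8 to 104 against 0.49 to 2.07 TPM) and Dtx1 did not overlap, while Cr2, Cd9 and S1pr3 did. Of the B-1 genes, Bhlhe41 and Ahnak did not overlap, while Cd5 and Zbtb32 did. The 6 B cell identity genes, such as Cd79a and Cd79b, summed to 4006 to 5328 TPM in MBCs against 2475 to 3090 TPM in MycWT LZ. All 6 had a higher mean in MBCs, 5 without overlap, with a median difference of 0.62 in log2(TPM + 1). The part of these markers in the MBC results was not tested. The 6 erythroid genes summed to 6713 TPM in the MBCs of mouse 3 and to at most 226 TPM in MycWT LZ, but also to 343, 409.6, 352 and 71.9 TPM in MycVD mice 5 to 8, and the 8 myeloid genes to 16.1, 43.0 and 169 TPM in the MBCs of mice 1, 3 and 4 against 0.82 to 9.18 in MycWT LZ. Of these myeloid genes, 3 were listed at 0 in every MBC library. The 8 T cell genes summed to 42.9 TPM in the MBCs of mouse 4 and were listed at 0 in those of mice 1 and 3, against 0.11 to 6.58 TPM in MycWT LZ. The part of these cells in the MBC results was not tested. A list of 5 plasma cell genes summed to 229 to 381 TPM in MycWT LZ and to less, 134 to 221 TPM, in every MycVD library. Of these genes, Jchain alone did not overlap, at 152 to 280 TPM in MycWT and 67.1 to 144 TPM in MycVD. Sdc1, Prdm1, Irf4 and Xbp1 overlapped between the genotypes. The part of the erythroid and plasma cell genes in the MycVD values was not tested. In such sorted bulk samples, fewer cells of a type and less RNA per cell cannot be told apart.

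The order of the levels was the same at its top in each group. B2m led in the 4 MycWT LZ libraries with 1199 ± 251 TPM (SD, n = 4), followed by H2-K1 with 429 ± 51.6 and H2-D1 with 217 ± 33.0, and no range of these 3 genes overlapped the next. H2-T23 (70.6 ± 12.6 TPM), Tapbp (55.4 ± 17.0) and Tap1 (42.6 ± 5.39) came next, and neighbours among them overlapped. Erap1 (24.9 ± 5.89 TPM) and Nlrc5 (23.2 ± 3.99) overlapped as well. Tap2 stood apart from both at 9.04 ± 1.86 TPM, and Cd1d1 was near 0 at 0.25 ± 0.209 TPM. Of the 12876 genes that reached 1 TPM on average in MycWT LZ, 99.5% were below B2m and 43.8% below Tap2. In MycVD LZ the order of the first 3 genes was kept, but H2-D1 overlapped Tapbp. In MBCs B2m, H2-K1 and H2-D1 again stood apart, while all neighbours from H2-T23 downwards overlapped. Nlrc5 had the fifth highest mean there. Cd1d1 was eighth by its mean but the lowest member in the libraries of mice 1 and 4.

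**Figure D1:**
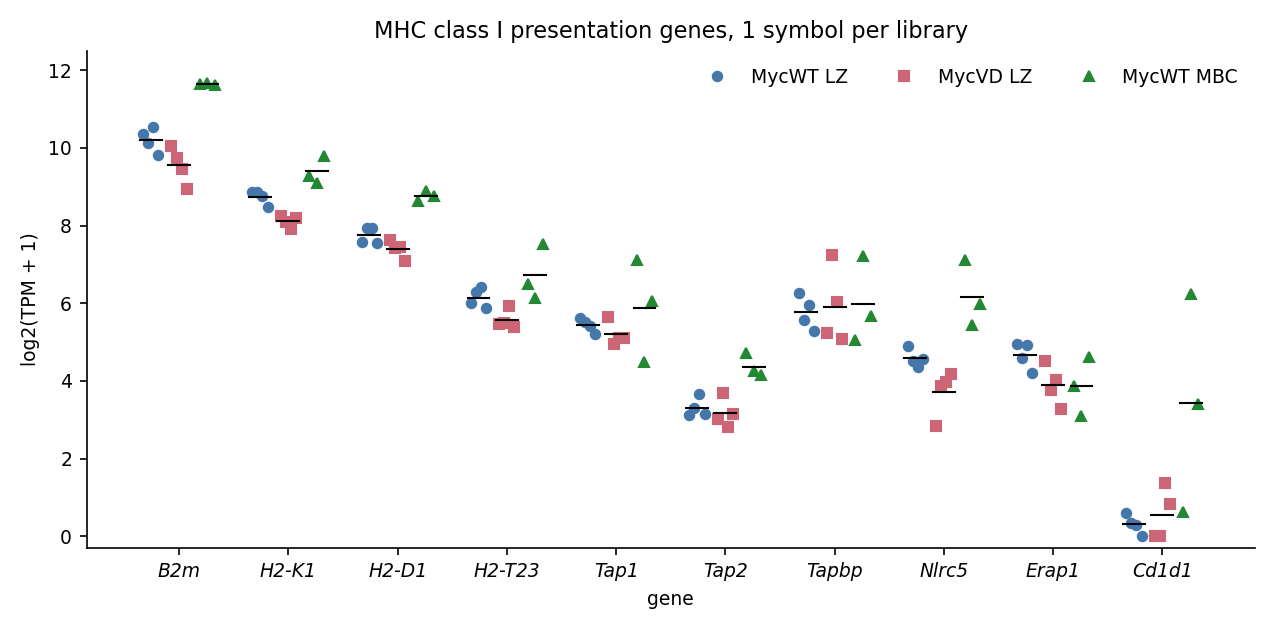
Levels of the 10 genes in each library, on the y axis as log2(TPM + 1), with the genes on the x axis; each symbol is 1 library (circles, 4 MycWT LZ; squares, 4 MycVD LZ; triangles, 3 MycWT MBC) and each bar the mean of a group. The 3 MBC symbols of B2m, H2-K1, H2-D1, Tap2 and Nlrc5 sit above all MycWT LZ symbols, and the MycVD LZ symbols of H2-K1 and Nlrc5 sit below all of them.

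The first comparison asked how class I presentation genes differ between MBCs and LZ B cells of MycWT mice. B2m, H2-D1 and Nlrc5 were higher in MBCs, by 2.66-fold, 2.01-fold and 3.45-fold of the mean TPM, and passed the test across all genes. These were 3 of the 9 members with a mean of 1 TPM or more in LZ B cells, where 4.17% of the 13245 genes tested were called higher. In 5 of these 9 (B2m, H2-K1, H2-D1, Tap2 and Nlrc5) every MBC library was above every LZ library, which held for 11.8% of all genes tested. The 9 had a median difference of 0.65 in log2(TPM + 1), against -0.14 for all genes and 0.62 for the B cell identity genes, and 8 of them, all but Erap1, had a higher mean in MBCs, as did 44.7% of all genes. Cd1d1 entered the fit through the MBC libraries alone and is left out of these counts. Genes were tested with limma on log2(TPM + 1), and a gene was called at a Benjamini-Hochberg adjusted p under 0.05.

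B2m was the most even member in MBCs. It measured 1301, 1112, 1485 and 899 TPM in LZ B cells of mice 1 to 4 and 3175, 3259.6 and 3118 TPM in MBCs of mice 1, 3 and 4. The groups were far apart, and the MBC libraries differed from each other by less than the LZ libraries did. The difference was 1.43 ± 0.19 (SE) in log2(TPM + 1), with an adjusted p of 0.00455 in limma. It remained called with the mouse as a block (adjusted p = 0.0339 in limma) and in each of the other 15 alternatives.

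H2-D1, a classical heavy chain, measured 189.8, 245, 245 and 186 TPM in LZ B cells and 395, 476 and 436 TPM in MBCs. Its groups did not overlap, and the difference was 1.01 ± 0.20 in log2(TPM + 1) with an adjusted p of 0.0181 in limma. The adjusted p was 0.111 with the mouse as a block, 0.0887 in limma without a trend, and 0.0643, 0.0557 and 0.0519 without the LZ library of mouse 1, 2 or 4. H2-K1, the other classical heavy chain, measured 463, 467, 429.6 and 356 TPM in LZ B cells and 621, 548 and 887 TPM in MBCs. Every MBC library was again above every LZ library. The difference of 0.65 ± 0.22 had an adjusted p of 0.0934 in limma and was not called, while the exact permutation test over the 35 groupings of the libraries gave a two-sided p of 0.0286, the smallest it can give. Without the MBC library of mouse 4, which also had the T cell transcripts, the difference was 0.45. H2-T23, which encodes the nonclassical class Ib molecule Qa-1, was at 62.6, 77.1, 84.9 and 57.9 TPM in LZ B cells, against 89.4, 68.8 and 185 TPM in MBCs. The MBC library of mouse 4 was the highest and that of mouse 3 lay within the LZ range. Its difference of 0.57 ± 0.36 had an adjusted p of 0.339 in limma, and was 0.16 without the MBC library of mouse 4 and 0.87 without that of mouse 3.

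Since B2m, H2-K1 and H2-D1 lie on chromosomes 2 and 17 and were all higher in MBCs than in any LZ library, though H2-K1 was not called, their promoters are shown for the letters they share. These are the 250 bases before a RefSeq start, from RefSeq on GRCm38.p6, read 5′ to 3′ on the strand of the gene: chr2:122147437-122147686 (plus strand) for B2m, chr17:34000348-34000597 (minus strand) for H2-K1 and chr17:35262844-35263093 (plus strand) for H2-D1. Capitals mark, in B2m, an interferon-stimulated response element core (GAAACTGAAA), a CRE core (TGACG) and a CCAAT box on the other strand (ATTGG). In H2-K1 and H2-D1 they mark a kB site (GGGGATTCCCC), a looser interferon element (TTTCACTTC), a CRE core and a CCAAT box on the other strand, and in H2-D1 also a CCAAT box on the strand of the gene. Another RefSeq start of H2-K1, whose window is not shown, has a CCAAT box on the strand of the gene as well. Other matches of the wider kB letters, which B2m holds too, are left in lower case.
B2m: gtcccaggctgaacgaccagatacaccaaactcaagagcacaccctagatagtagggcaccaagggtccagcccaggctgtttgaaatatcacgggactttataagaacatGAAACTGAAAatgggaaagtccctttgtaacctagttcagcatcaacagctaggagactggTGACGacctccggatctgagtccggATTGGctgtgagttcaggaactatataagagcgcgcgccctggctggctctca
H2-K1: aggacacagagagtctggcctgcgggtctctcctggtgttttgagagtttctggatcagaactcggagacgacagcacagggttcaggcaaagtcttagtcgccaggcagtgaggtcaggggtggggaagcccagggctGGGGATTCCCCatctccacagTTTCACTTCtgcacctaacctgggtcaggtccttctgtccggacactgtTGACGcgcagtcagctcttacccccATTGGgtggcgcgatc
H2-D1: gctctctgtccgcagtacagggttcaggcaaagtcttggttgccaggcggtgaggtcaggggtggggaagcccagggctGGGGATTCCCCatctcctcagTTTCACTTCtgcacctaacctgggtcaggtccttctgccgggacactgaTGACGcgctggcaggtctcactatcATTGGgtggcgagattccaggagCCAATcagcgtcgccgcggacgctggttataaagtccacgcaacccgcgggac

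The promoters of H2-K1 and H2-D1 share an unbroken run of 47 bases that holds the kB site, while B2m shares at most 8 bases in a row with either. The motifs were searched on both strands in the 250 bases of all 32851 promoters of the table. The exact 11 letters GGGGATTCCCC were in 10 of them (0.0304%), and GAANNGAAA, which reads TTTCACTTC on the other strand, in 6.31%. Both were chosen after these promoters had been seen, and GGGGATTCCCC is made of overlapping matches of the wider kB letters, GGG and CC with 5 bases between them, which 4 of the 7 members with a sequence (B2m, H2-K1, H2-D1 and Tap1) and 45.8% of all promoters hold. Of these 7 (B2m, H2-K1, H2-D1, H2-T23, Tap1, Tapbp and Erap1), the interferon-stimulated response element core, GAAA and GAAA with 2 bases between them, was in 2 (B2m and H2-T23) and in 2.98% of all promoters. CCAAT was in 6 of 7, that is in all but Erap1, and in 33.8% of all promoters, and TGACG in 4 (B2m, H2-K1, H2-D1 and Tap1) and in 17.8%. The E box CACGTG, the letters that MYC with MAX is known to bind, was in Erap1 and in 6.02% of all promoters. ATCGAT, part of a motif described for MIZ1, was in 0 of the 7 and in 0.728% of all promoters. A match of letters is a description of the window and not a site in use. Tap2, Nlrc5 and Cd1d1 had no sequence in the table.

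Nlrc5 showed the largest difference of the called members. It measured 28.9, 21.9, 19.5 and 22.6 TPM in LZ B cells and 136, 42.4 and 61.6 TPM in MBCs. The lowest MBC library was above the highest LZ library, but MBCs varied more among themselves (80.1 ± 49.6 TPM, SD, n = 3) than LZ B cells did. The difference was 1.59 ± 0.41 with an adjusted p of 0.0461 in limma. With the mouse as a block the adjusted p was 0.136, and it was 0.0724 in limma without a trend, 0.0883 with no filter and 0.0529 with a pseudocount of 0.1 TPM. Without the MBC library of mouse 1, the highest, the difference was 1.12 with an adjusted p of 0.0674 in limma. Leaving out the LZ library of mouse 1, 2, 3 or 4 also gave adjusted p-values above the threshold, from 0.0944 to 0.134 in limma.

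The transport and loading genes did not move as 1 block. Tap2, a subunit of the peptide transporter, was at 7.65, 8.88, 11.7 and 7.91 TPM in LZ B cells, against 25.1, 18.1 and 16.7 TPM in MBCs. All MBC libraries were above all LZ libraries, and the difference of 1.06 ± 0.38 had an adjusted p of 0.110 in limma. Tap1, the other subunit, was at 48.4, 44.9, 41.3 and 35.8 TPM in LZ B cells, against 137, 21.6 and 65.6 TPM in MBCs. The MBC library of mouse 3 was below every LZ library and the remaining MBC libraries were above them. The ratio of Tap1 to Tap2 was 6.32, 5.05, 3.52 and 4.52 in LZ B cells and 5.45, 1.19 and 3.94 in MBCs, overlapping between the groups (exact permutation p = 0.314, 0.419 after adjustment over 8 tests of sums and ratios). Tapbp was at 76.2, 46.2, 61.5 and 37.8 TPM in LZ B cells, against 31.9, 148 and 49.5 TPM in MBCs. Here the library of mouse 3 was the highest and that of mouse 1 the lowest, so that the differences of Tap1 (0.45 ± 0.54) and Tapbp (0.20 ± 0.51) were smaller than their errors. Erap1 was at 30.1, 22.9, 29.2 and 17.6 TPM in LZ B cells, against 13.6, 7.49 and 23.7 TPM in MBCs. Its mean was lower in MBCs, with overlapping groups and a difference of -0.81 ± 0.44 (adjusted p = 0.277 in limma), which was -0.42 without the MBC library of mouse 3 and -1.19 without that of mouse 4.

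Cd1d1 encodes CD1d, which pairs with β2-microglobulin and presents lipids to NKT cells. It measured 0.51, 0.27 and 0.22 TPM in LZ B cells of mice 1 to 3, was listed at 0 in mouse 4, and measured 0.53, 75.0 and 9.66 TPM in MBCs of mice 1, 3 and 4. The MBC library of mouse 1 was at the level of the LZ libraries, so the higher mean came from the libraries of mice 3 and 4. The difference of 3.12 ± 1.12 had an adjusted p of 0.114 in limma, and since the gene reached the filter through MBCs alone, this and any call of it carry no support. It was 1.71 without the MBC library of mouse 3 (adjusted p = 0.175 in limma) and 4.52 without that of mouse 1 (adjusted p = 0.0173 in limma). The libraries of mice 3 and 4 are also those with the higher myeloid sums, at 43.0 and 169 TPM against 16.1 in mouse 1, and that of mouse 3 has the erythroid genes. The 5 marginal zone genes summed to 311, 376 and 414 TPM in the MBCs of mice 1, 3 and 4. The part of these in the Cd1d1 level was not tested.

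The count of called members rested on B2m. It was 1 (B2m) with the mouse as a block and without the LZ library of mouse 1, 2 or 4, and 2 (B2m and H2-D1) without that of mouse 3. Without the MBC library of mouse 3, which holds the erythroid genes, and without that of mouse 4, with the highest myeloid sum, the same 3 members were called as in all libraries. Without the MBC library of mouse 1 the count was 3 as well, with Cd1d1 in place of Nlrc5.

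**Figure D2:**
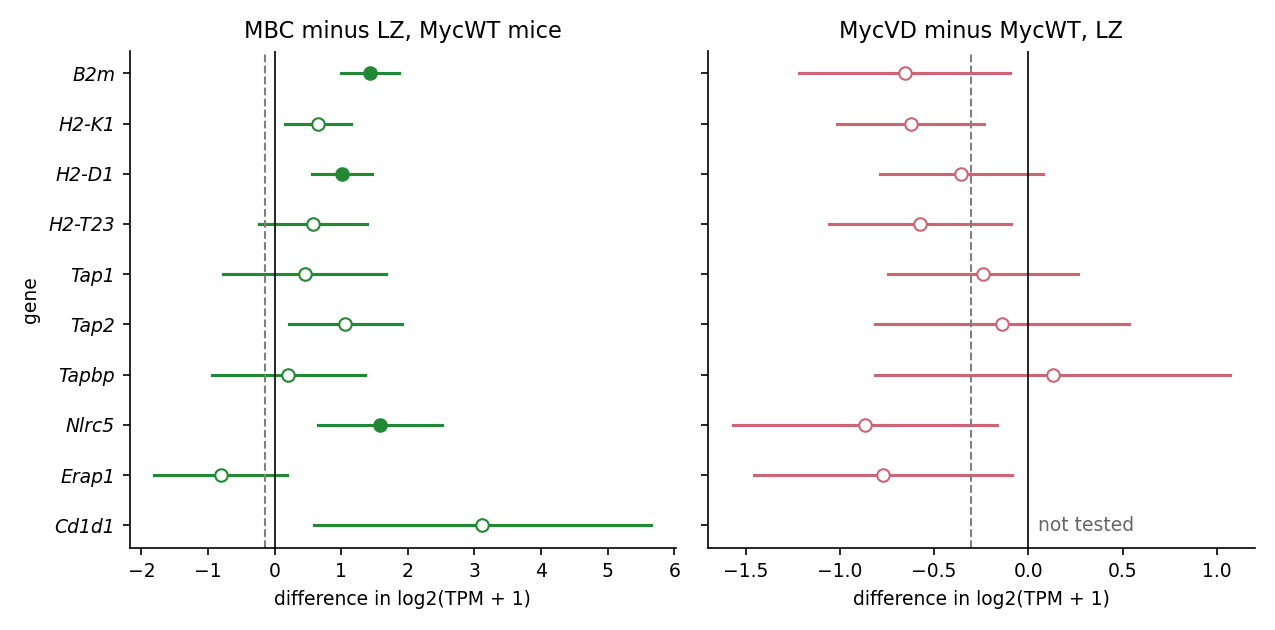
Difference of each gene (y axis) in log2(TPM + 1) on the x axis, for MBC minus LZ in MycWT mice (left) and MycVD minus MycWT in LZ (right); points are limma estimates, filled where the adjusted p was under 0.05, lines are 95% confidence intervals, and the dashed line is the median of all genes tested. B2m, H2-D1 and Nlrc5 are filled on the left and none on the right, where the dashed line itself lies at -0.31.

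The second comparison asked whether the V394D form of MYC goes with other levels of these genes in LZ B cells. Of the 9 members tested (Cd1d1 was below 1 TPM), 8 had a lower mean in MycVD and none was called by limma, with 6 of 12869 genes called in all (0.0466%). Means were lower in MycVD for 73.7% of all genes tested, and the median of all genes was -0.31 in log2(TPM + 1). The median of the members was -0.57, that is -0.27 relative to all genes. At an unadjusted p under 0.05, 5 members were lower (B2m, H2-K1, H2-T23, Nlrc5 and Erap1), as were 15.7% of all genes, and limma without a trend called no member either. In H2-K1 and Nlrc5 every MycVD library was below every MycWT library, which held for 9.16% of all genes.

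H2-K1 measured 304, 274, 238 and 293 TPM in LZ B cells of MycVD mice 5 to 8, against 356 to 467 TPM in MycWT mice. All 4 MycVD libraries were below all 4 MycWT libraries. The difference was -0.63 ± 0.18 in log2(TPM + 1), or -0.32 relative to the median of all genes, with an adjusted p of 0.141 in limma and an exact permutation p of 0.0286, the smallest the 70 groupings can give. H2-D1 measured 197, 171, 174 and 134 TPM, against 186 to 245 TPM in MycWT. The groups overlapped, and its difference of -0.36 ± 0.20 was -0.05 relative to all genes. H2-T23 was at 43.1, 44.1, 60.3 and 40.9 TPM against 57.9 to 84.9 TPM, with only the library of mouse 7 inside the MycWT range and a difference of -0.57 ± 0.22 (adjusted p = 0.228 in limma).

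B2m measured 1059, 852, 702 and 493 TPM in MycVD mice 5 to 8, against 899 to 1485 TPM in MycWT. The library of mouse 5 lay inside the MycWT range and the other 3 below it. The difference was -0.66 ± 0.26, or -0.35 relative to all genes, with an adjusted p of 0.231 in limma. Ribosomal RNA genes took 44.1, 49.8, 52.1 and 61.3% of the TPM of the same libraries, in the reverse order of B2m. In MycWT mice 1 to 4 they took 42.1, 39.9, 35.7 and 44.5%, beside B2m levels of 1301, 1112, 1485 and 899 TPM. That reverse order did not hold between mice 1 and 2. The part of ribosomal RNA in the B2m level was not tested, since it was removed only together with immunoglobulin and mitochondrial genes. Without ribosomal RNA, immunoglobulin and mitochondrial genes the B2m difference was -0.31 and the median of all genes -0.02.

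Nlrc5 was at 6.19, 13.7, 14.8 and 17.1 TPM in MycVD against 19.5 to 28.9 TPM in MycWT. The groups did not overlap, the library of mouse 5 being the lowest. The difference of -0.87 ± 0.32 was -0.56 relative to all genes and had an adjusted p of 0.216 in limma (exact permutation p = 0.0286). Without the library of mouse 5 it was -0.58. Erap1 was at 21.9, 12.6, 15.1 and 8.76 TPM against 17.6 to 30.1 TPM, with a difference of -0.77 ± 0.31 (adjusted p = 0.246 in limma). Only the library of mouse 5 was inside the MycWT range. Tap1 was at 48.9, 29.7, 33.1 and 33.6 TPM, Tap2 at 7.10, 11.9, 6.07 and 7.91 TPM and Tapbp at 36.7, 151, 64.4 and 32.5 TPM. These 3 genes overlapped the MycWT libraries, with differences of -0.24 ± 0.23, -0.14 ± 0.31 and 0.13 ± 0.43. With 1 library left out, that of Tap1 ran from -0.39 (without mouse 5) to -0.16 (without mouse 6) and that of Tap2 from -0.31 (without mouse 6) to -0.020 (without MycWT mouse 3). Relative to all genes, Tap1 (0.07), Tap2 (0.17) and Tapbp (0.44) were on the positive side. The difference of Tapbp was -0.32 without the library of mouse 6, which had the highest level, and -0.036 without that of MycWT mouse 4. Cd1d1 was listed at 0 in mice 5 and 6 and measured 1.59 and 0.79 TPM in mice 7 and 8.

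When TPM were rescaled by the median ratio, the median of all genes in MycVD went from -0.31 to -0.01. H2-K1 was then at -0.28, B2m at -0.31, H2-T23 at -0.23, Nlrc5 at -0.54, Erap1 at -0.45 and H2-D1 at -0.01. Tap1 and Tap2 turned to 0.10 and 0.17, Tapbp was at 0.47, and no member was called. In the MBC comparison the same rescaling left the median of all genes at -0.14 and the directions of the 10 members unchanged, and H2-K1 was then called (difference 0.66, adjusted p = 0.0390 in limma).

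Class I heavy chain genes are close copies of each other, so reads can be split between H2-K1, H2-D1 and the H2-Q genes in ways that depend on the counting, and single levels are uncertain to that extent. The sum over the 28 annotated H2-K, H2-D, H2-Q, H2-T and H2-M genes (10 of them listed at 0 in every library) keeps reads split between these genes within 1 value, although TPM divide reads by gene length, so that the split can still move the sum. It was 931, 1046, 939.5 and 748 TPM in MycWT LZ, 739, 639.9, 657 and 648 TPM in MycVD LZ, and 1593, 1547 and 1941 TPM in MBCs. The 3 groups did not overlap. On the log2 scale MBCs were 0.89 above MycWT LZ (1.85-fold) and MycVD LZ 0.44 lower (a log2 difference of -0.44, 0.736-fold), each with an exact permutation p of 0.0286, the smallest these designs can give, and 0.114 after adjustment over the 8 tests. After rescaling by the median ratio the MycVD difference was -0.10 (exact permutation p = 0.171), and that of MBCs 0.90. H2-K1 and H2-D1 together made up 62.7 to 72.4% of the sum. Relative to B2m, the summed heavy chains stood at 0.716, 0.941, 0.633 and 0.832 in MycWT LZ, at 0.698, 0.751, 0.936 and 1.32 in MycVD LZ and at 0.502, 0.475 and 0.622 in MBCs. The ratio was below all MycWT LZ libraries in MBCs, by -0.54 on the log2 scale (exact permutation p = 0.0571, adjusted p = 0.152), and overlapped in MycVD.

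**Figure D3:**
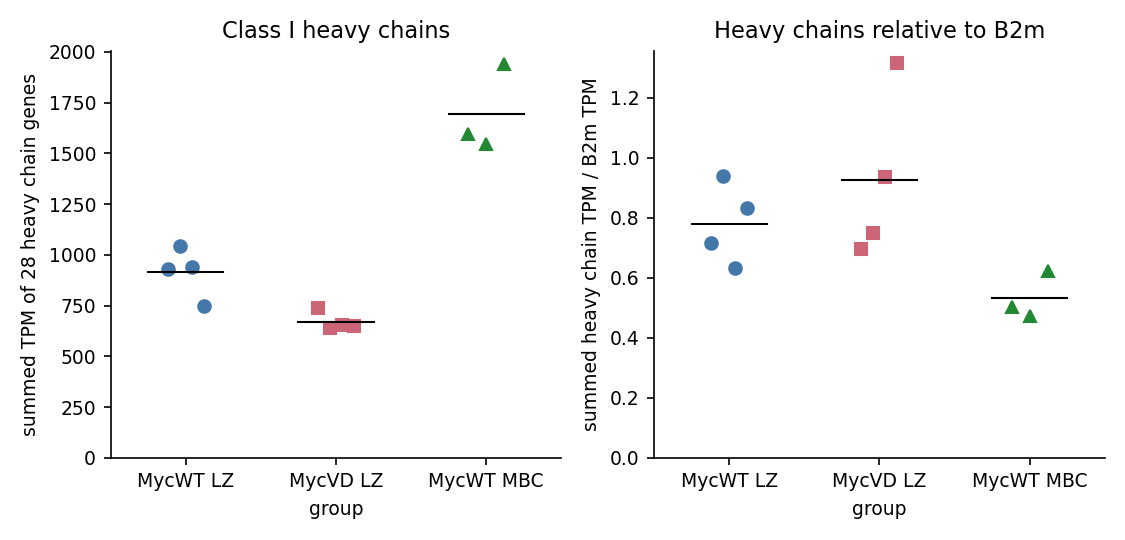
Summed TPM of the 28 class I heavy chain genes (left) and this sum divided by the TPM of B2m (right), on y axes starting at 0, for the 3 groups on the x axis; each symbol is 1 library and each bar a mean. The MBC sums lie between 1547 and 1941 TPM, above all LZ sums, and the MBC ratios between 0.475 and 0.622, under all LZ ratios.

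The members varied together to different degrees over the 11 libraries, which share their scaling and fall into 3 groups, so the correlations of log2(TPM + 1) describe these libraries only. B2m followed H2-D1 (Pearson r = 0.971), H2-K1 (0.882) and Tap2 (0.852), and Nlrc5 followed Tap2 (0.821) and H2-K1 (0.808). Tap1 and Tap2 had an r of 0.444, and Tap1 and Tapbp ran in opposite directions (-0.600). Erap1 stood apart from B2m (0.052) and Nlrc5 (-0.12). Among 7013 other genes averaging at least 10 TPM, the gene most like each member was Scd1 for B2m (0.991), Tbcd for H2-K1 (0.978), Zfp984 for H2-D1 (0.980), Zfp935 for H2-T23 (0.938) and Atp8b2 for Tap1 (0.964). It was Snx9 for Tap2 (0.962), Cnot3 for Tapbp (0.910), Erbin for Nlrc5 (0.958), Thumpd3 for Erap1 (0.966) and Alkbh8 for Cd1d1 (0.956). H2-M3, another class Ib heavy chain, was the third most like H2-K1 (0.966).

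Another 57 genes of the class I pathway were listed in 4 groups. In MBCs 50 of them were tested, and 5 were called higher and 1 lower, against 4.17% and 5.04% of all genes. H2-M2 and Fcgrt, neither of them called, were under 1 TPM on average in LZ B cells and entered the fit through the MBC libraries alone, so they are left out of the medians. The median difference of the other 48 was 0.18, against -0.14 for all genes. With the mouse as a block, 2 of the 6 were called (H2-Q6 and H2-Q7). The same 2 were called without the LZ library of mouse 1, 2 or 4, and H2-Q6 alone without that of mouse 3, whereas 12 genes were called without the MBC library of mouse 4.

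H2-Q6 and H2-Q7, class Ib heavy chains of the Qa-2 family, were the heavy chain genes called among the 11 tested of 18 class Ib and class I-like genes. H2-Q6 measured 39.6, 60.7, 43.6 and 35.6 TPM in MycWT LZ, 44.6, 42.1, 37.4 and 49.2 TPM in MycVD LZ and 179.6, 159 and 129.8 TPM in MBCs. H2-Q7 measured 48.2, 51.1, 31.9 and 24.7 TPM in MycWT LZ, 40.1, 14.96, 36.5 and 32.9 TPM in MycVD LZ and 153, 119 and 109.9 TPM in MBCs. Both were far above the LZ range in every MBC library, by 1.79 ± 0.27 (adjusted p = 0.00683) and 1.72 ± 0.32 (adjusted p = 0.0151) in limma, and since they are near-identical genes their reads could be shared. The 9 genes of this group that reached 1 TPM in LZ B cells had a median difference of 0.68 in MBCs.

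None of the 5 immunoproteasome and PA28 genes was called in MBCs by limma, and none had an unadjusted p under 0.05. Their median difference was -0.47. Psmb8, a catalytic immunoproteasome subunit, was at 199.96, 239, 280.2 and 206 TPM in LZ B cells, against 184, 183.7 and 133 TPM in MBCs. It was the 1 gene of the 5 whose groups did not overlap. Every MBC library was below every LZ library in 1906 of the 13245 genes tested. The difference of Psmb8 was -0.47 ± 0.22 (adjusted p = 0.216 in limma). Psmb8 is named here after its values were seen, so its exact permutation p of 0.0286, the smallest possible, carries no support. Psmb9, another catalytic subunit whose start lies beside that of Tap1 in the opposite direction, was at 195, 333, 312 and 263 TPM in LZ B cells, against 199.8, 47.4 and 205 TPM in MBCs. As for Tap1, the MBC library of mouse 3 was the lowest of all. Psmb10, the remaining catalytic subunit, was at 93.6, 96.0, 115 and 75.0 TPM in LZ B cells, against 18.1, 182 and 81.7 TPM in MBCs, with the library of mouse 3 now the highest. The difference was -1.11 for Psmb9 (adjusted p = 0.187 in limma) and -0.52 for Psmb10 (adjusted p = 0.645 in limma).

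Among the 17 peptide loading and trimming genes, Ide was called higher and Sec61b lower, against 4.17% and 5.04% of all genes. Ide, which encodes insulin-degrading enzyme, a cytosolic protease, was at 3.92, 4.47, 8.80 and 6.72 TPM in LZ B cells, against 95.6, 22.8 and 30.3 TPM in MBCs (difference 2.63 ± 0.55, adjusted p = 0.0229 in limma). Sec61b, a subunit of the translocon that takes new proteins into the endoplasmic reticulum, was at 129, 163, 146 and 128 TPM in LZ B cells, against 37.0, 27.1 and 79.5 TPM in MBCs (difference -1.68 ± 0.36, adjusted p = 0.0244 in limma). Neither gene overlapped between the groups, and neither acts on class I molecules alone. Among the 17 transcriptional regulators and interferon receptor genes, 13 had a higher mean in MBCs and 2 were called higher, against 44.7% and 4.17% of all genes. Ifngr1, a subunit of the interferon-γ receptor, was at 42.7, 39.6, 55.3 and 40.4 TPM in LZ B cells, against 86.2, 96.0 and 90.1 TPM in MBCs (difference 1.02 ± 0.25, adjusted p = 0.0355 in limma). This group had a median difference of 0.76.

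**Figure D4:**
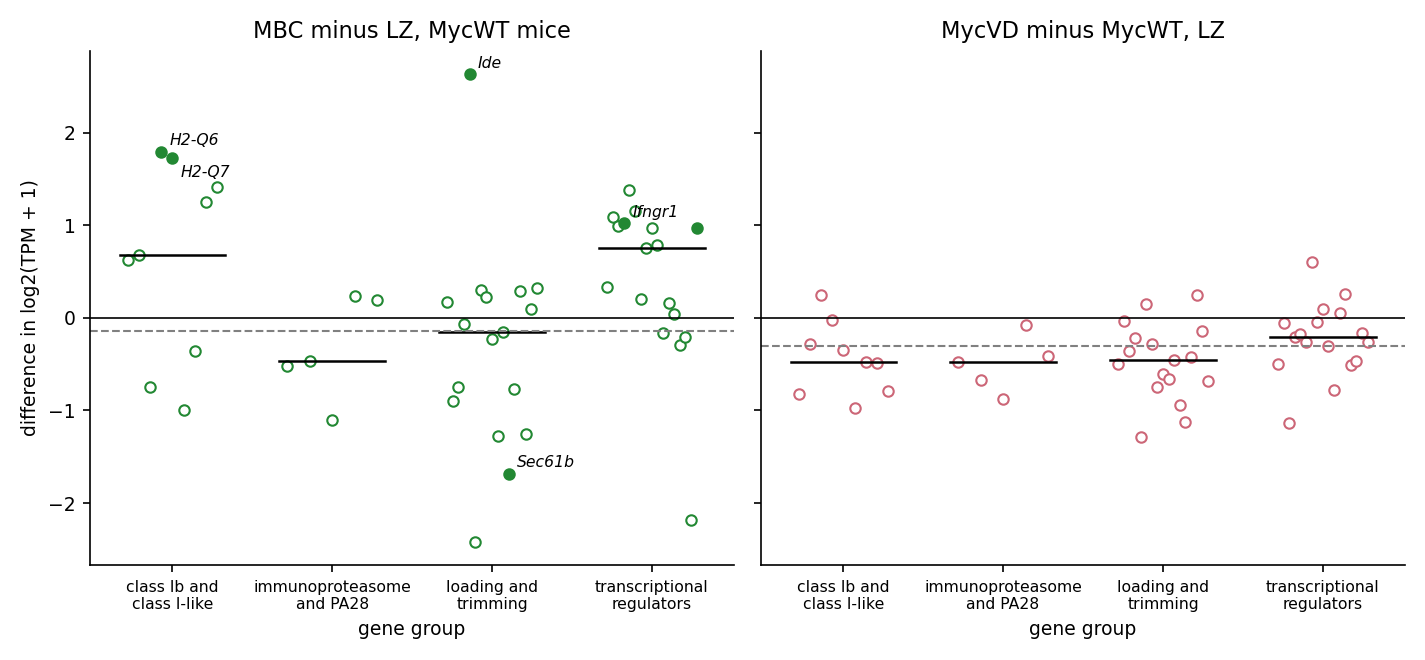
Difference in log2(TPM + 1) (y axis) of the 48 genes, in 4 groups of other class I pathway genes (x axis), that were tested and reached 1 TPM on average in MycWT LZ, MBC minus LZ (left) and MycVD minus MycWT (right); each point is a gene, filled where the adjusted p was under 0.05 and named where its values are given in the text, solid bars are group medians and the dashed line is the median of all genes. On the left the medians are 0.68, -0.47, -0.15 and 0.76, and on the right all 4 lie between -0.48 and -0.21.

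In MycVD LZ B cells 48 of the 57 genes were tested. Of these, 41 had a lower mean, as did 73.7% of all genes. None was called by limma, against 0.0466% of all genes. At an unadjusted p under 0.05, 12 were lower and 1 higher, as were 15.7% and 1.24% of all genes. Their median was -0.38, or -0.08 relative to all genes. The 2 genes with the largest differences in each group, among those averaging at least 5 TPM, were H2-M3 and H2-T24, Psmb9 and Psmb8, Sec61g and Sec61b, and Ifnar2 and Nfyb. H2-M3 was at 33.0, 35.4, 27.4 and 22.9 TPM in MycWT and at 18.1, 20.1, 14.0 and 13.2 TPM in MycVD, so the groups did not overlap (difference -0.82 ± 0.25, adjusted p = 0.156 in limma). Sec61b in MycVD, at 102, 91.7, 67.0 and 44.2 TPM, was also below every MycWT library (difference -0.94 ± 0.26, adjusted p = 0.132 in limma). Nfyb, a subunit of the factor that binds CCAAT boxes, was at 23.8 to 37.0 TPM in MycWT and at 11.2 to 20.6 TPM in MycVD (difference -0.78 ± 0.27). Irf2, a regulator that binds interferon response elements and the gene that was higher at an unadjusted p under 0.05, was at 77.1, 106, 98.3 and 96.1 TPM in MycWT and at 166, 173, 134 and 107 TPM in MycVD. The groups did not overlap (difference 0.60 ± 0.21, or 0.91 relative to all genes, adjusted p = 0.200 in limma), and it is named after its values were seen. Psmb9 (-0.88 ± 0.30), Psmb8 (-0.67 ± 0.24), Sec61g (-1.13 ± 0.46), Ifnar2 (-1.13 ± 0.43) and H2-T24 (-0.49 ± 0.41) overlapped between the genotypes.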

How the data were processed

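The authors aligned reads with STAR 2.5.2a and quantified Ensembl genes on GRCm38 with RSEM 1.3.0 with a strand-specific setting (tool versions per the labels), and deposited TPM with 2 decimals in 1 table of all 11 libraries. The number of reads and the annotation release are not given in the sources used here, so no counting error could be computed. The authors' own tests used DESeq2, which needs counts; these were not used here. Symbols and positions were taken from GENCODE M21 (GRCm38), which names 48435 of the 48795 genes.

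Genes averaging at least 1 TPM in the libraries of a comparison were tested on log2(TPM + 1) with limma 3.58.1 under R 4.3.3 (linear model, eBayes with an intensity trend, two-sided). Benjamini-Hochberg adjustment covered all genes tested, with a threshold of 0.05. Sums and ratios were tested by exact two-sided permutation of the libraries in Python 3.11.15 with numpy 2.4.6 and pandas 2.3.3. Figures were drawn with matplotlib 3.10.9. The members, the other gene lists and the comparisons were chosen with earlier results of these data known. 1 called gene of the other pathway genes is not reported here. The text names the 10 members, the other pathway genes that were called or, in a group with none, the 2 with the largest difference at a mean of at least 5 TPM, and, of the 3 genes whose levels correlated best with each member, the first (H2-M3, the third of H2-K1, was added after its value was seen). MBCs and LZ B cells of MycWT mice 1, 3 and 4 came from the same animals by their labels, so a fit with the mouse as a block was run on these 3 pairs. Their deviations from the group means correlated with r = 0.005, 0.011 and -0.047.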

Additional observations from a re-analysis of the deposited data

How the results depend on the processing

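The alternatives were each library left out in turn, the mouse as a replicate block, 1 fit of all 3 groups, limma without a trend, another pseudocount (0.1 TPM), another filter (5 TPM or none), and 3 other scalings: the median ratio, quantile normalization, or TPM without ribosomal RNA, immunoglobulin and mitochondrial genes. Of 160 values of the members in MBCs, 140 kept direction and side of the threshold, 14 lost their call (5 of H2-D1 and 9 of Nlrc5), 3 gained one and 3 reversed. Of 144 in MycVD, 136 were kept and 8 reversed. The causes were not tested. No member was called in MycVD under any alternative.

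The reversed values, all of genes that were not called, were those of Tap1 in MycVD (0.0049 with quantile normalization, 0.096 after rescaling by the median ratio and 0.10 after the removal of genes), of Tap2 in MycVD (0.12, 0.17 and 0.18 under the same settings), of Tapbp in MycVD (-0.32 without the library of mouse 6 and -0.036 without that of MycWT mouse 4, in a range of -0.32 to 0.40 over the libraries left out), of Tap1 in MBCs (-0.16 without the MBC library of mouse 1, to 1.15 without that of mouse 3) and of Tapbp in MBCs (-0.032 with quantile normalization, and -0.42 without the MBC library of mouse 3 to 0.67 without that of mouse 1).

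The members called in MBCs were 3, and 1 both in limma without a trend and with the mouse as a block, 2 with no filter or a pseudocount of 0.1 TPM, 4 (with H2-K1) under quantile normalization or rescaling, and 1 to 3 when a library was left out. The other pathway genes called were 6, against 3 in limma without a trend, 3 with no filter and 2 with the mouse as a replicate block, and 1 to 12 when a library was left out. All genes called in MBCs were 1219, against 248 with the block and 608 with no filter, and 342 to 2754 when a library was left out. All genes called in MycVD were 6, against 15 at a mean of at least 5 TPM, 1 with quantile normalization, 1 after the removal of genes and 0 with all 3 groups in 1 fit, no filter, a pseudocount of 0.1 TPM or rescaling, and 0 to 254 when a library was left out (254 without that of mouse 5).

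The summed heavy chain level in MycVD was -0.44 and became -0.096 after rescaling (exact permutation p = 0.171), -0.14 with quantile normalization (p = 0.257, exact) and -0.092 after the removal of genes (p = 0.429, exact), with -0.54 to -0.37 when a library was left out, where the exact permutation p was 0.0571 without any 1 of the MycVD libraries and 0.0286 without any 1 of the MycWT libraries. In MBCs it was 0.79 to 0.96 when a library was left out, and 0.96 with the mouse as a replicate block, where the exact permutation p can reach no less than 0.25; with a library left out of the MBC comparison it can reach no less than 0.0667 or 0.1.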

Other observations

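MHC class II and interferon-stimulated genes were read beside class I. Of 11 genes of class II presentation tested in MBCs, 2 were called higher, against 4.17% of all genes. Ciita, the class II counterpart of Nlrc5, was at 61.0, 52.7, 61.0 and 48.4 TPM in LZ B cells of MycWT mice 1 to 4 and at 91.2, 139 and 100.4 TPM in MBCs (difference 0.95 ± 0.25 in log2(TPM + 1), adjusted p = 0.0498 in limma). Ctss, which encodes the protease cathepsin S, was at 150.5, 172, 203 and 133 TPM in LZ B cells, against 474, 426 and 436 TPM in MBCs (difference 1.45 ± 0.21, adjusted p = 0.00562 in limma). Both groups of libraries were apart in each gene. In MycVD LZ B cells none of these 11 genes was called by limma, 5 were lower at an unadjusted p under 0.05, as were 15.7% of all genes, and Ctss was at 111, 76.9, 83.0 and 53.2 TPM, under every MycWT library.

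Of 20 interferon-stimulated genes 17 were tested in MBCs, and 1 was called higher, against 4.17% of all genes. That gene, Gbp7, which encodes a guanylate-binding protein, reached the filter through the MBC libraries alone, so its call carries no support. It was at 0.04 to 0.34 TPM in LZ B cells, against 2.49, 13.1 and 9.98 TPM in MBCs. In MycVD 11 of the 20 were tested and none was called by limma, with 1 lower at an unadjusted p under 0.05, against 15.7% of all genes.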
